A study of Mus musculus with 12 samples.

Results

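The 37 genes described here encode the glucose transporters, the enzymes of glycolysis, the enzymes and carriers of lactate and pyruvate, the pyruvate dehydrogenase complex with its kinases and a phosphatase, and the hypoxia factor Hif1a. They were chosen by name from these pathways, among the 49585 genes counted in the study. RNA of hematopoietic stem cells (HSCs) from bone marrow was sequenced in 6 wild-type (WT) and 6 Pon2-/- mice. The Pon2-/- mice are deficient in the antioxidative enzyme paraoxonase 2. The paper describes this protein as strongly reduced in them and does not call it absent. The question was which transcripts differ between the genotypes. The cells were sorted as Lin-, Sca1+, ckit+, CD135- and CD150+, a gate that holds long-term HSCs together with a multipotent progenitor named MPP2. For each mouse, 8 wells of 10 cells were processed with the Smart-seq2 protocol, and the deposited files hold 1 column of counts per mouse.

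All mice had a C57BL/6J background and were 10 to 14 weeks old. WT mice came from a commercial breeder, and the labels do not say that they were littermates of the Pon2-/- mice. The Pon2-/- mice carry a gene trap vector with a beta-geo cassette and flanking loxP sites in intron 2 of Pon2, an inherited insertion that is not limited to blood cells. Nothing in the labels ties a WT mouse to a Pon2-/- mouse. In RNA from pooled cells, fewer cells that express a gene and less RNA per cell cannot be told apart.

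Glycolysis splits glucose into pyruvate and yields ATP without oxygen. Lactate dehydrogenase then converts pyruvate to lactate, or the mitochondrial pyruvate carrier brings pyruvate to pyruvate dehydrogenase, which makes acetyl-CoA for the citric acid cycle. Pyruvate dehydrogenase kinases switch this complex off and pyruvate dehydrogenase phosphatases switch it on. Quiescent HSCs are known for a reliance on glycolysis in a hypoxic niche, where HIF-1α raises many glycolytic enzymes and the kinase Pdk1.

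The libraries held between 12967791 and 24228280 counts, and mitochondrial transcripts took 4.89% to 9.55% of them. All 10 HSC markers examined, Kit, Ly6a, Slamf1 and Mecom among them, were counted in all 12 samples, and their summed level was 2150 to 2750 CPM (counts per 1000000 counts) in WT and 2040 to 2670 CPM in Pon2-/- samples. The 8 myeloid markers ranged in sum from 1.52 to 8120 CPM in WT and from 68.4 to 13300 CPM in Pon2-/- samples. The high sums came mostly from S100a8, S100a9 and Ltf. Over all samples, Mpo reached at most 96.6 CPM, Ly6g 33.7, Itgam 17.6, Elane 10 and Csf1r 8.21 CPM. The 7 B lineage markers reached 10100 CPM in the Pon2-/- 3 sample, mostly from Ighm, against 25.3 to 706 CPM elsewhere. Flt3, which encodes the CD135 that the gate leaves out, had 4.55 to 64.4 CPM. The 6 T lineage markers summed to 0.0421 to 39.3 CPM in WT and 18.6 to 57.3 CPM in Pon2-/- samples, mostly from Lck, which was counted in 11 of 12 samples, while Cd3e and Cd8a were at 0 in all. The erythroid markers summed to 33.0 to 71.5 CPM in WT and 24.4 to 69.2 CPM in Pon2-/- samples, and among them the globin gene Hbb-bt had 6.04 to 37.8 CPM in WT and 0 to 1.1 CPM in Pon2-/- samples, without overlap. The 6 markers of cycling cells, Mki67 and Top2a among them, were counted in all 12 samples. Their sum was 464 to 1620 CPM in WT and 480 to 1780 CPM in Pon2-/- samples. The part of myeloid, lymphoid, erythroid or cycling cells in the values below was not tested. The targeted gene Pon2 (chr6:5264147-5298455, GRCm38, minus strand) had at least 55.8 CPM in every WT sample (median 104 CPM) and ranged from 1.15 to 32.8 CPM in Pon2-/- samples (median 29.4 CPM), so the genotypes did not overlap. Its log2 fold change was -2.13 (SE 0.57) with an adjusted p of 0.586 in edgeR, so that even the targeted gene did not pass the threshold over all genes. Reads from exons on either side of the trap are summed in this count.

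Glycolytic transcripts were present in every sample, and the 37 genes together took 0.564% to 0.695% of all counts in WT and 0.496% to 0.759% in Pon2-/- samples. Of the 37 genes, 35 passed the filter on low counts; the lactate exporter Slc16a3 and the kinase Pdk4 did not. Among these 35, 19 had a higher and 16 a lower mean level in Pon2-/- HSCs, and the median log2 fold change was 0.053, beside -0.009 over all 11848 genes tested. None of the 35 passed the study's thresholds (FDR below 0.05 and a fold change above 2) in edgeR's quasi-likelihood test, where 0.203% of all tested genes passed (0.127% higher and 0.076% lower in Pon2-/-). None was called either by DESeq2, which called 1.2% of its genes, by DESeq2 without its cutoff for outlying counts, which called 3.73%, or by limma voom, which called 0.194%. At an unadjusted edgeR p below 0.05 stood 2 of the 35, Gpi1 and Pdhb, where 3.13% of all genes did. Gpi1 was higher (1.7% of all genes) and Pdhb lower (1.43%) in Pon2-/- HSCs. The same pair stood below 0.05 in DESeq2 with and without that cutoff, beside 4.98% and 9.08% of its genes, and voom added Eno2 and Hk2, for 4 of 35 beside 6.36% of all genes. The same 2 genes had an exact permutation p below 0.05, a share to be read against 5.88% of all genes. For 0 of the 35 did the genotypes separate without overlap, against 0.625% of all genes.

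**Figure D1:**
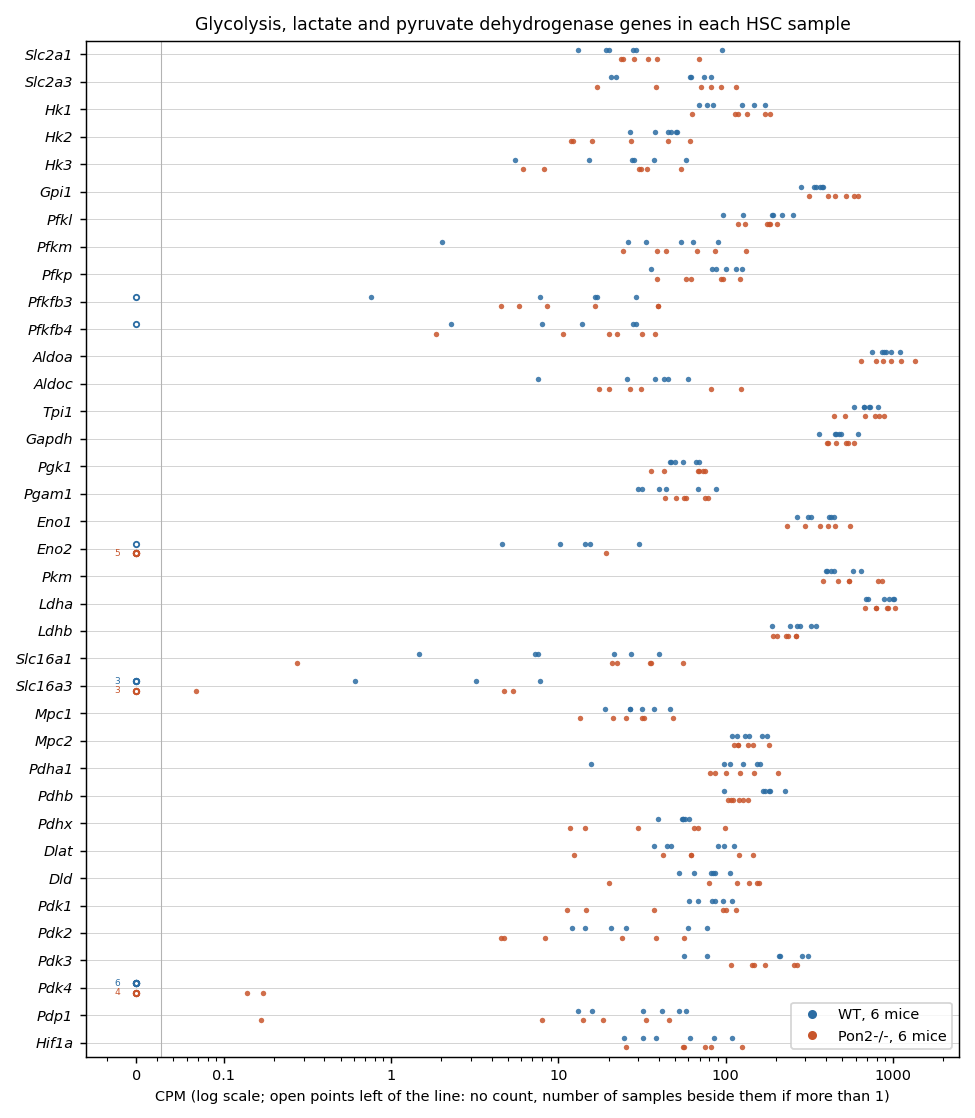
CPM of all 37 genes in each of the 12 samples on a log axis (blue, 6 WT mice; red, 6 Pon2-/- mice), with samples without a count as open points at the left. Aldoa, Ldha and Tpi1 lie near the top of the scale in both genotypes, Eno2 has no count in 5 of the 6 Pon2-/- samples, and Pdk4 has none in the 6 WT samples.

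The precision differed widely between genes. The 95% interval of the log2 fold change lay within -1 and 1, which leaves out a change of 2-fold or more in either direction, for 16 of the 35 genes and for 25.5% of all genes tested. These 16 were Hk1, Gpi1, Pfkl, Pfkp, Aldoa, Tpi1, Gapdh, Pgk1, Pgam1, Eno1, Pkm, Ldha, Ldhb, Mpc2, Pdhb and Pdk3. The median SE of the log2 fold change was 0.42 for the 35 genes and 0.57 over all genes. For the other 19 genes, a change of 2-fold lay within the interval in at least 1 direction.

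**Figure D2:**
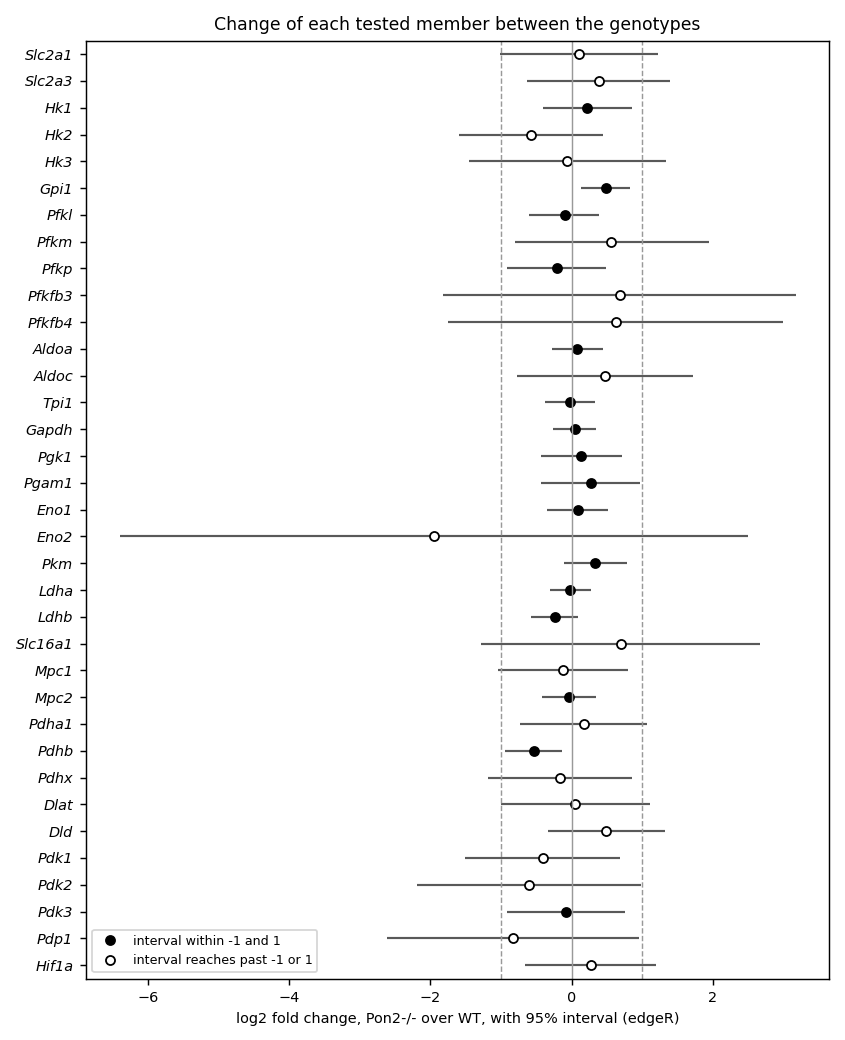
Log2 fold change (Pon2-/- over WT) of the 35 tested genes with its 95% interval from edgeR; dashed lines mark -1 and 1, and filled points have an interval between them. Only the intervals of Gpi1 (0.13 to 0.83) and Pdhb (-0.94 to -0.14) leave out 0, before any adjustment for the number of genes, and the interval of Eno2 is the widest.

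Per length (CPM divided by the kilobases of all exons of the gene), the highest mean levels over the 12 samples belonged to Aldoa (322 ± 64.8 CPM per kb, SD), Ldha (262 ± 38.2), Tpi1 (252 ± 46.6), Ldhb (161 ± 30.6), Gapdh (116 ± 18) and Pkm (108 ± 32.0). Next stood Pdk3, a pyruvate dehydrogenase kinase, with 73.1 ± 32.6 CPM per kb, ahead of Eno1 and Gpi1. The ranges of all neighbours in this order overlapped. The genes of the last places were Pfkfb4, Pfkfb3, Eno2, Slc16a3 and Pdk4. With the length of the longest transcript in place of all exons, the first 3 places stayed as they were, Pkm moved to place 4 and Gapdh to place 7, and Eno1 (place 6) and Gpi1 (place 8) came before Pdk3 (place 9).

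**Figure D3:**
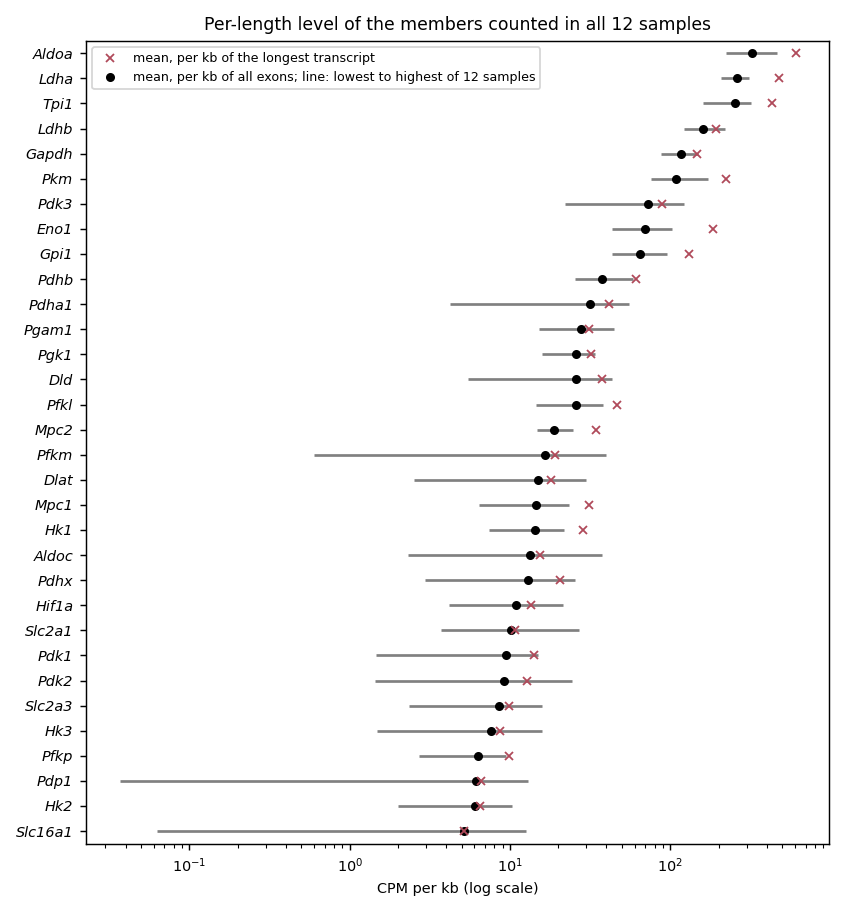
Mean per-length level (black points, CPM per kb of all exons, log axis) with the range over 12 samples for the 32 genes counted in all samples, and the mean per kb of the longest transcript (crosses). Aldoa, Ldha and Tpi1 lead on both measures, and Pdp1, Slc16a1 and Pfkm have the longest ranges downwards.

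The spread between mice followed the level. The 8 genes with a mean of 200 CPM or more (Gpi1, Aldoa, Tpi1, Gapdh, Eno1, Pkm, Ldha and Ldhb) had coefficients of variation of 14.6% to 29.5% over the 12 samples, with a median of 19.6%, beside 21.5% for all genes of that level. The 6 genes between 100 and 200 CPM had a median of 31.4%, beside 31.6%. The 21 tested genes under 100 CPM ran from 23.3% (Pgk1) to 129% (Eno2), with a median of 55.0%, beside 65.5%.

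The glucose transporters among the 37 genes were Slc2a1 (GLUT1), the widespread form, and Slc2a3 (GLUT3), a form of high affinity. Slc2a1 ranged from 13.1 to 95.1 CPM in WT (median 24 CPM) and from 23.8 to 69.2 CPM in Pon2-/- samples (median 31.4 CPM). Slc2a3 ranged from 20.7 to 81.5 CPM in WT (median 61.9 CPM) and from 17.1 to 115 CPM in Pon2-/- samples (median 76.6 CPM). The genotypes overlapped for both, with log2 fold changes of 0.10 (SE 0.52) and 0.38 (SE 0.47). Which of the pair had the larger per-length level differed from mouse to mouse: Slc2a1 led in 2 WT and 3 Pon2-/- samples, and its share of the pair ran from 24.9% to 89.9%.

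Hexokinases trap glucose in the cell as glucose-6-phosphate. Hk1, the housekeeping form, ranged from 69.7 to 172 CPM in WT (median 105 CPM) and from 63.4 to 185 CPM in Pon2-/- samples (median 126 CPM), with a log2 fold change of 0.22 (SE 0.29). It had the largest share of the family in 10 of 12 samples, on average 47.2% ± 12.7 in WT and 57.8% ± 21 in Pon2-/- samples (SD, n = 6). Hk3, the form of myeloid cells, led in the WT 3 and Pon2-/- 6 samples. Without division by length, Hk1 was the higher there, with 84.7 and 63.4 CPM against 58.3 and 54.4 CPM of Hk3. Hk2, the inducible form and a HIF-1α target, ranged from 26.8 to 51.4 CPM in WT (median 46.3 CPM) and from 11.9 to 61.3 CPM in Pon2-/- samples (median 21.5 CPM). For Hk2 the log2 fold change was -0.57 (SE 0.47), with an exact permutation p of 0.0931, and 3 of the 6 Pon2-/- samples lay below all WT samples while 1 lay above them.

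Gpi1, glucose-6-phosphate isomerase, had 375, 383, 348, 340, 281 and 369 CPM in the 6 WT samples and 589, 527, 616, 452, 316 and 410 CPM in the 6 Pon2-/- samples. Thus 5 of the 6 Pon2-/- samples lay above all WT samples, and the Pon2-/- 5 sample lay inside the WT range. The log2 fold change was 0.48 (SE 0.16, 95% interval 0.13 to 0.83), with an unadjusted edgeR p of 0.0107 and an adjusted p of 1.0. The exact permutation test (two-sided, all relabellings of the 12 samples, smallest possible p 0.00216) gave 0.0281 unadjusted, and 0.0563 without the WT 5 sample. Without the Pon2-/- 5 sample, the only one that overlapped, the genotypes separated, which follows from that choice. The gene (chr7:34201330-34230336, GRCm38) has a processed pseudogene copy, Gm1840, 98.63% identical to it, which held at most 0.451% of the reads of the pair.

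Phosphofructokinase commits sugar phosphates to glycolysis. Its liver form Pfkl had the largest per-length share in 9 of 12 samples, and Pfkm, the muscle form, led in the other 3. The share of Pfkl was on average 56.8% ± 14.7 in WT and 50.7% ± 10.2 in Pon2-/- samples. In the 3 samples led by Pfkm (WT 6, Pon2-/- 3 and Pon2-/- 5), Pfkl had 96.9, 203 and 119 CPM against 63.9, 133 and 86.7 CPM of Pfkm. The lead of Pfkm there thus depended on the division by length. Pfkl ranged from 96.9 to 253 CPM in WT (median 191 CPM) and from 119 to 203 CPM in Pon2-/- samples (median 180 CPM), with a log2 fold change of -0.10 (SE 0.23). Pfkm ranged from 2.01 to 89.5 CPM in WT (median 44.0 CPM) and from 24.5 to 133 CPM in Pon2-/- samples (median 55.6 CPM). The lowest of these was the WT 4 sample, which stood far under the 26.0 CPM of the next WT sample. Pfkp, the platelet form, ranged from 36.0 to 126 CPM in WT (median 94.2 CPM) and from 39.1 to 122 CPM in Pon2-/- samples (median 78.1 CPM), and here the WT 5 sample stood apart, with 83.0 CPM in the next. The regulators Pfkfb3 and Pfkfb4, whose product fructose-2,6-bisphosphate activates phosphofructokinase, ranged from 0 to 39.7 and from 0 to 37.6 CPM over all samples. Their log2 fold changes of 0.68 (SE 1.16) and 0.62 (SE 1.1) were smaller than their errors. Pfkm overlaps Senp1 and Pfkp overlaps Pitrm1 on the opposite strand, and such reads cannot be assigned without strand information. The same holds for Hk1 with Hk1os, Tpi1 with Spsb2 and Gapdh with Iffo1.

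In the lower part of glycolysis, from aldolase to pyruvate kinase, the main forms had log2 fold changes between -0.02 and 0.33. The values were 0.08 (SE 0.17) for Aldoa, -0.02 (SE 0.17) for Tpi1, 0.04 (SE 0.14) for Gapdh, 0.13 (SE 0.27) for Pgk1, 0.27 (SE 0.33) for Pgam1, 0.09 (SE 0.20) for Eno1 and 0.33 (SE 0.21) for Pkm. Gapdh, the dehydrogenase often used as a reference gene, ranged from 361 to 616 CPM in WT (median 467 CPM) and from 406 to 583 CPM in Pon2-/- samples (median 491 CPM). Its 95% interval ran from -0.27 to 0.35. The aldolase of the brain, Aldoc, made up at most 12.2% of the per-length aldolase level in any sample, the rest being Aldoa. Pkm, pyruvate kinase, was counted for the whole gene, so that its spliced forms were not resolved. In sum, the 18 glycolytic enzymes from the hexokinases to lactate dehydrogenase had a per-length level of 1480 ± 121 CPM per kb in WT and 1520 ± 272 CPM per kb in Pon2-/- samples (SD, n = 6). The WT values of 1280 to 1590 CPM per kb lay within the Pon2-/- values of 1160 to 1850 CPM per kb. Per kb of the longest transcript, the means were 2540 in WT and 2650 in Pon2-/- samples.

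Eno2, the neuronal enolase and a HIF-1α target, had 724, 0, 362, 132, 64 and 252 counts in the WT samples and 0, 0, 0, 0, 0 and 326 counts in the Pon2-/- samples. It was thus counted in 5 of 6 WT and 1 of 6 Pon2-/- samples, and the Pon2-/- 6 sample with 19.4 CPM lay above all but 1 WT sample. The fitted log2 fold change of -1.95 had an SE of 2.07, and the exact permutation p was 0.0671. Eno2 gave at most 8.65% of the per-length enolase level in any sample, so that Eno1 was the main enolase throughout.

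**Figure D4:**
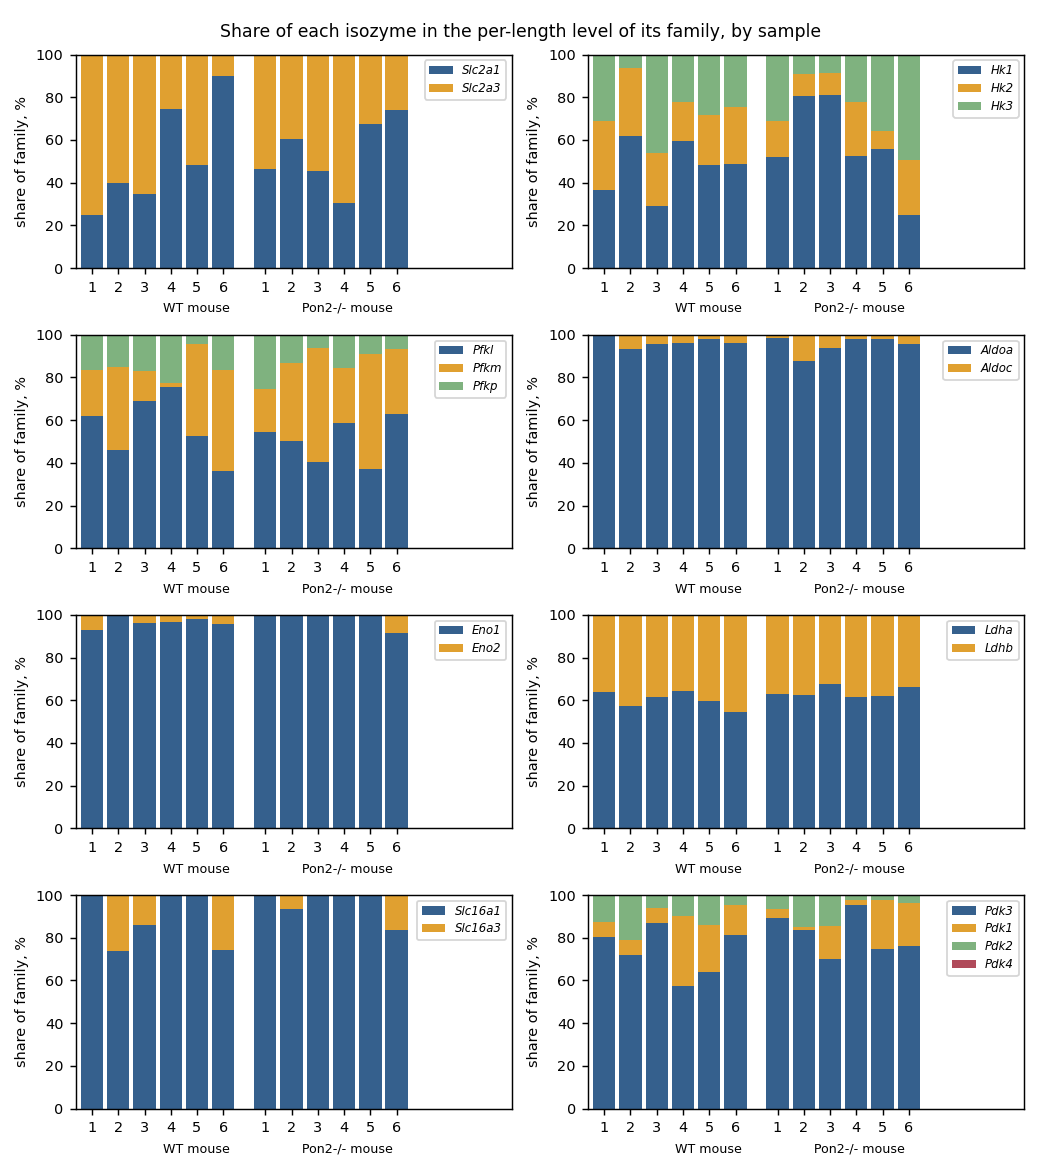
Share of each isozyme in the per-length level of its family (%, stacked bars) in the 6 WT and 6 Pon2-/- mice. Aldoa, Eno1, Ldha, Slc16a1 and Pdk3 are the largest in all 12 samples. On this measure, the leading form of the glucose transporters, hexokinases and phosphofructokinases varies between mice of the same genotype. For the hexokinases and phosphofructokinases this depends on the division by length.

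Lactate dehydrogenase is built of Ldha, the form that favours lactate, and Ldhb, which favours pyruvate. Ldha ranged from 694 to 1010 CPM in WT (median 914 CPM) and from 686 to 1030 CPM in Pon2-/- samples (median 863 CPM), with a log2 fold change of -0.02 (SE 0.14). Ldhb ranged from 189 to 345 CPM in WT (median 273 CPM) and from 193 to 263 CPM in Pon2-/- samples (median 233 CPM), with a log2 fold change of -0.24 (SE 0.16) and an exact permutation p of 0.149. Per length, Ldha made up 60.3% ± 3.76 of the pair in WT and 63.8% ± 2.40 in Pon2-/- samples (SD, n = 6), with ranges of 54.7% to 64.2% and 61.5% to 67.4% that overlapped.

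The monocarboxylate transporter Slc16a1 (MCT1) moves lactate in either direction, and Slc16a3 (MCT4) is the exporter of glycolytic cells. Slc16a1 ranged from 1.46 to 40.1 CPM in WT (median 14.6 CPM) and from 0.276 to 55.6 CPM in Pon2-/- samples (median 28.9 CPM). The lowest value was that of the Pon2-/- 3 sample, while the other 5 Pon2-/- samples had 20.9 CPM or more. Its log2 fold change was 0.70 (SE 0.92), the largest positive value of the 35 genes and smaller than its error. Slc16a3 had 0, 62, 194, 0, 0 and 10 counts in WT and 0, 110, 0, 1, 0 and 90 counts in Pon2-/- samples, so 3 samples of each genotype had none.

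The mitochondrial pyruvate carrier consists of Mpc1 and Mpc2. Mpc2 ranged from 109 to 177 CPM in WT (median 135 CPM) and from 112 to 182 CPM in Pon2-/- samples (median 128 CPM), with a log2 fold change of -0.04 (SE 0.18). Mpc1 was lower and less precise, from 19.1 to 46.5 CPM in WT and from 13.4 to 48.6 CPM in Pon2-/- samples, with a log2 fold change of -0.12 (SE 0.43). The near-identical processed pseudogene Mpc1-ps (99.7% identity) held 9.64% to 21.4% of the reads of the pair. With these reads added, the log2 fold change of Mpc1 was -0.16.

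Of the pyruvate dehydrogenase complex, the E1 subunits are Pdha1 and Pdhb, the E2 subunit is Dlat, the E3 subunit Dld and the E3-binding protein Pdhx. Pdhb had 185, 227, 171, 97.7, 168 and 183 CPM in the 6 WT samples and 108, 103, 136, 128, 121 and 111 CPM in the 6 Pon2-/- samples. Thus 5 of the 6 WT samples lay above all Pon2-/- samples, and the WT 4 sample lay below them all. The log2 fold change was -0.54 (SE 0.19, 95% interval -0.94 to -0.14), with an unadjusted edgeR p of 0.0119, an adjusted p of 1.0 and an exact permutation p of 0.0216. Without the WT 4 sample, the log2 fold change was -0.66, the genotypes did not overlap and the adjusted edgeR p was 0.205. That sample was the only one that broke the separation, so the lack of overlap follows from that choice. Pdhb lies at chr14:8165996-8173025 (GRCm38).

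Pdha1, its partner in E1, ranged from 15.7 to 161 CPM in WT (median 118 CPM) and from 81.1 to 206 CPM in Pon2-/- samples (median 111 CPM), with a log2 fold change of 0.17 (SE 0.42). The WT 4 sample held the lowest value here too, where the next WT sample had 97.5 CPM. The difference between the changes of Pdhb and Pdha1 was not tested.

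Pdhx ranged from 39.3 to 60.8 CPM in WT (median 55.9 CPM) and from 11.7 to 99.3 CPM in Pon2-/- samples (median 47.2 CPM), so that the WT values lay within the Pon2-/- range. The lowest WT value, in the WT 5 sample, stood apart from the other 5, which had 55.0 to 60.8 CPM. Dld ranged from 52.4 to 107 CPM in WT (median 82.9 CPM) and from 20.1 to 159 CPM in Pon2-/- samples (median 128 CPM). The Pon2-/- 6 sample held the lowest value of Dld, while 4 of the other 5 Pon2-/- samples lay above all WT samples, and the log2 fold change was 0.49 (SE 0.38). Dlat ranged from 12.4 to 146 CPM over all samples, with a log2 fold change of 0.05 (SE 0.49). Per length, the mean levels of the 5 subunits over all samples were 37.6 CPM per kb for Pdhb, 31.4 for Pdha1, 25.9 for Dld, 14.9 for Dlat and 13 for Pdhx, with overlapping ranges.

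A processed pseudogene of Pdhb, Gm6123 (chr1:4771131-4772199, GRCm38, 97.03% identical to the Pdhb transcript over 1079 bases and overlapping no other annotated gene), differed between the genotypes in the opposite direction. It was looked at because its parent gene is among the 37, and is described here after its values were seen. Gm6123 had 5, 3, 4, 1, 0 and 1 counts in WT and 31, 41, 43, 34, 36 and 26 counts in Pon2-/- samples, so every Pon2-/- sample lay above every WT sample. It was 1 of the 24 genes that passed the study's thresholds in edgeR, with a log2 fold change of 4.01 (SE 0.64) and an adjusted p of 0.0136. Gm6123 passed the filter on low counts only through the Pon2-/- samples, since WT samples had at most 0.211 CPM. Its call and its separation rest in part on that choice of genes. With all genes of at least 1 read kept, its adjusted edgeR p was 0.281. In voom the adjusted p was 0.2, and neither fit called it. In the fits without 1 sample, it passed in 5 of 12, with adjusted p-values of 0.0138 to 0.0934 and log2 fold changes of 3.77 to 4.27, and over all 20 alternative fits that hold it in 10. Gm6123 held 1.36% to 1.83% as many reads as Pdhb in Pon2-/- samples and at most 0.114% in WT, so that adding its reads to Pdhb left the log2 fold change of Pdhb at -0.52. Reads that fit both loci equally well are not counted for either. Since the labels do not give the mice as littermates, the Pon2 genotype and a sequence difference between the colonies at Pdhb or Gm6123 cannot be told apart in these counts.

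**Figure D5:**
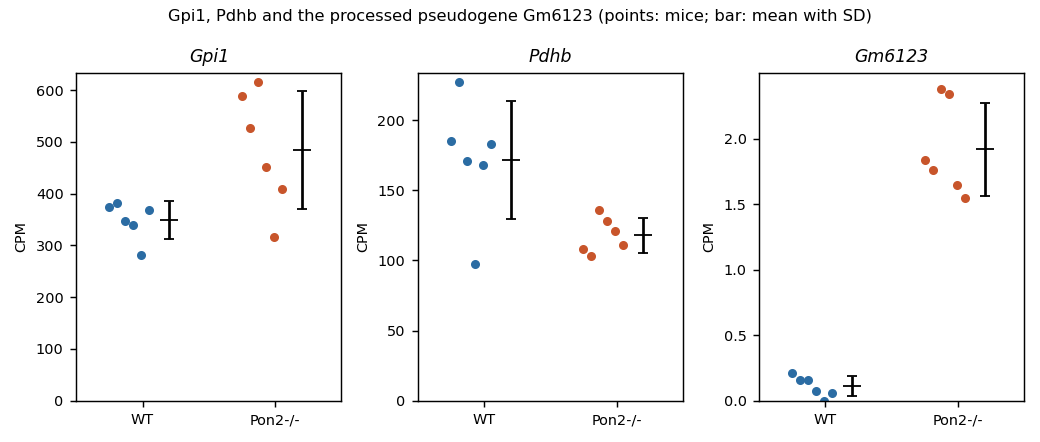
CPM of Gpi1, Pdhb and the Pdhb pseudogene Gm6123 in each mouse (points), with the mean and SD of each genotype. The Gpi1 values of 5 Pon2-/- samples lie above all WT samples, the Pdhb values of 5 WT samples lie above all Pon2-/- samples, and the Gm6123 values do not overlap.

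The pyruvate dehydrogenase kinases Pdk1, Pdk2 and Pdk3 and the phosphatase Pdp1 all had a lower mean level in Pon2-/- samples, 4 of 4 tested genes, and none passed a test. Where 49.2% of all genes tested had a log2 fold change above 0, a common sign of 4 genes is no result about them. Pdk3 was the main kinase in all 12 samples, with 73.6% ± 11.3 of the per-length level of the kinases in WT and 81.5% ± 9.61 in Pon2-/- samples (SD, n = 6). It ranged from 56.2 to 311 CPM in WT (median 212 CPM) and from 108 to 266 CPM in Pon2-/- samples (median 160 CPM), with a log2 fold change of -0.08 (SE 0.39). Pdk1, the HIF-1α target, ranged from 60.2 to 109 CPM in WT (median 84.8 CPM) and from 11.3 to 116 CPM in Pon2-/- samples (median 67.0 CPM). Here 3 Pon2-/- samples lay below all WT samples, and the log2 fold change was -0.41 (SE 0.51). Pdk2 had a log2 fold change of -0.61 (SE 0.74). Pdp1 ranged from 13.2 to 58.3 CPM in WT (median 36.9 CPM) and from 0.166 to 45.7 CPM in Pon2-/- samples (median 16.2 CPM), the lowest value being that of the Pon2-/- 3 sample. Its log2 fold change was -0.83 (SE 0.83).

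Pdk4, the kinase that fasting induces, was close to absent. It had 0 counts in all 6 WT samples, which allows a level of up to 0.124 to 0.231 CPM per sample (3 counts), and 4 and 2 counts in the Pon2-/- 2 and Pon2-/- 4 samples. Such limits cover counting error only. Pdk4 is the neighbour of the targeted gene among the 37, 184.9 kb from Pon2 on chromosome 6, where 6 others (Slc2a3, Hk2, Tpi1, Gapdh, Eno2 and Ldhb) lie 77.4 to 137.2 Mb away.

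Hif1a, the regulated subunit of the hypoxia factor HIF-1, ranged from 24.6 to 110 CPM in WT (median 50 CPM) and from 25.5 to 126 CPM in Pon2-/- samples (median 65.9 CPM), with a log2 fold change of 0.27 (SE 0.43). HIF-1α is controlled mainly through the stability of its protein, which RNA does not show. The core of its binding site, ACGTG, was searched on both strands in windows of 250 bases before to 50 after each start site (RefSeq, GRCm38.p6; windows for 35 of the 37 genes). It was found for 19 of the 35 genes (54.3%), beside 30.1% of the tested genes with a window and 21.8% of all genes with one. Among single windows, 44% of those of these 35 genes and 26% of those of tested genes held it. These 35 lack Slc2a3 and Pdp1 and include Slc16a3 and Pdk4, so they are not the 35 tested genes. To show the sequence context, the match nearest upstream of a RefSeq start site is given with 12 bases on either side. Shown are the 4 genes with a mean of 100 CPM or more that had such a match with these bases inside the window. A gene can have several start sites: Aldoa had 3 windows, Ldha 2, Pkm 2 and Pdk3 1. The stretches of Aldoa, Ldha and Pkm lie within the annotated bounds of their genes. All are read along the gene's own strand, with the match in capitals. CACGT is ACGTG on the other strand, and a palindromic CACGTG holds both.
Aldoa: tgtggctcgagtCACGTcctagcggggcg
Ldha: cgtgggttcccgCACGTccgctgggctcc
Pkm: ctccgatccggtCACGTccgcgccgcagc
Pdk3: cgcgcgccgcgtACGTGcggcggcagatc

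These lie at chr7:126799364-126799392 (minus strand), chr7:46845758-46845786 (plus strand), chr9:59657140-59657168 (plus strand) and chrX:93832187-93832215 (minus strand), and end-to-start distances from the start sites were 121, 29, 70 and 48 bases. Gpi1, one of the pair with an unadjusted p below 0.05, had no match in its window. Pdhb, the other, had a match that did not meet the conditions for being shown. Of the genes named here as HIF-1α targets, Hk2 had a match, and Eno2 and Pdk1 had none. A match of these letters is a description of the window, and binding was not measured.

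Further genes of these pathways were counted in the same fit. Of 45 further genes of glycolysis and gluconeogenesis, 27 were tested, 15 were higher and 12 lower in Pon2-/- samples, none was called in edgeR and none had an unadjusted p below 0.05. Of 11 genes of the pentose phosphate pathway, 10 were tested, with 5 higher and 5 lower and none called. In this list, Pgls, which encodes 6-phosphogluconolactonase, had an unadjusted p of 0.0442 and an adjusted p of 1.0. It ranged from 113 to 224 CPM in WT (median 147 CPM) and from 172 to 307 CPM in Pon2-/- samples (median 192 CPM), with overlap and a log2 fold change of 0.45 (SE 0.20). Of 28 listed genes of the HIF pathway, 27 were matched by symbol and 22 tested, with 9 higher and 13 lower, none called and none with an unadjusted p below 0.05. The median log2 fold changes of the 3 lists were 0.096, 0.012 and -0.101, and in none of them did a gene separate the genotypes without overlap.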

How the data were processed

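Smart-seq2 libraries of sorted HSCs from 6 WT and 6 Pon2-/- mice were analysed. The authors trimmed reads with Trimmomatic 0.36, mapped them with STAR 2.5.3a to GRCm38.p5 (GENCODE release M12) and deposited its gene counts, raw whole numbers of uniquely mapped reads, 1 file per mouse. Reads were not deduplicated by molecular identifiers as far as the sources used here say, and whether the column ignores strand is not given in them. The authors' own tests used DESeq2 1.18.1.

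Gene IDs were matched without version to GENCODE release M21 (GRCm38), which named 49326 of 49585 IDs. Coordinates, transcript lengths and exon lengths are from that release. Genes passing filterByExpr were tested with edgeR 4.0.16 (R 4.3.3; TMM scaling, quasi-likelihood F-test with a term for genotype alone), with Benjamini-Hochberg adjustment over all genes tested. The study's thresholds defined a call: FDR under 0.05 together with a fold change over 2 in either direction. CPM are TMM-scaled, and log2 CPM for the exact permutation tests (two-sided) had a prior count of 2. The biological coefficient of variation was 99.2%. DESeq2 1.42.0, limma 3.58.1 (voom with quality weights), 2 other filters, DESeq2 size factors, robust estimation, a replicate block, added pseudogene reads and the omission of each sample were tried as alternatives. Pseudogene copies were found by aligning transcripts with minimap2 2.31-r1302 (at least 90% identity over 200 bases and 50% of the copy). The steps were tested on simulated data.

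The gene list and the further lists were chosen with earlier results of these data known. Values of every sample, or the lowest, median and highest, are given for genes with an exact permutation p below 0.05, without a pass of the filter, with an outlying sample, or leading a family whose main form changes between samples, and other genes mainly by range. Genes of the further lists are named at an unadjusted p below 0.05 or without overlap. Depth was 12967791 to 24228280 counts per sample, so that 3 counts equal 0.124 to 0.231 CPM. Nothing in the labels says whether samples of 1 genotype came from separate litters, and p-values measure the spread between these samples.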

Additional observations from a re-analysis of the deposited data

Results flagged for a closer look

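In the 70 sets of 6 samples (35 genes in 2 genotypes), 10 samples lay outside Dixon's 95% limit on log2 CPM. For normally spread values, chance gives about 1 in 20. Sets with values at or near 0, as for Eno2, Slc16a1 and Pdp1, are not spread in that way, so this rate is only a rough guide. In the WT 4 sample, Pfkm had 2.01 CPM (26.0 to 89.5 CPM in the other WT samples), Pdha1 15.7 CPM (97.5 to 161 CPM) and Pdhb 97.7 CPM (168 to 227 CPM). In the WT 5 sample, Pfkp had 36.0 CPM (83.0 to 126 CPM in the others) and Pdhx 39.3 CPM (55.0 to 60.8 CPM). In the Pon2-/- 3 sample, Slc16a1 had 0.276 CPM (20.9 to 55.6 CPM in the other Pon2-/- samples) and Pdp1 0.166 CPM (8.04 to 45.7 CPM). In the Pon2-/- 6 sample, Dld had 20.1 CPM (79.8 to 159 CPM in the others) and Eno2 19.4 CPM, where the others had 0. Eno2 was at 0 in the WT 2 sample, where the other WT samples had 4.60 to 30.5 CPM. The WT 4 and WT 5 samples had the fewest counts of the series, 12967791 and 13903265, and a part of depth in their low values was not tested.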

How the results depend on the processing

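No member was called in any of the 22 fits; the smallest adjusted p of a member was 0.0812, for Gpi1 in DESeq2 without its cutoff for outlying counts. Over the 21 alternative fits, Gpi1 had log2 fold changes of 0.38 to 0.58 and Pdhb of -0.66 to -0.45, with unadjusted p-values of 0.00137 to 0.0392 and of 0.000674 to 0.0434. Without the WT 5 sample, the exact permutation p of Gpi1 was 0.0563, and 7 of 420 such p-values with 1 sample left out fell below 0.05 where the full set did not (Slc2a1, Hk2, Eno2, Ldhb and Dld). Genes without overlap numbered 0 to 1 when 1 sample was left out: Pdhb without the WT 4 sample and Gpi1 without the Pon2-/- 5 sample. In both cases the sample left out was the only one that broke the separation, so the outcome was fixed by the choice and is no result about these genes. With all 12 samples, 0.625% of all genes did not overlap, and omitting a sample can only raise that share among the same genes. The median log2 fold change of the members was 0.045 to 0.061 in the alternatives other than voom (-0.022), and -0.039 to 0.097 with 1 sample left out. Of all genes, 24 were called, 8 without a filter, 305 by DESeq2, 950 without its cutoff and 20 to 28 with 1 sample left out; the cause of these differences was not tested. The replicate block gave 5 calls. Nothing in the labels says that the replicate numbers pair the mice. The correlations of same-numbered samples, each genotype centred on its own mean, were 0.00093 to 0.043. Only 1 WT sample of 6 correlated best with its own number. Such values cannot exclude a pairing.

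Small values changed sign. Under the replicate block this held for Hk3 (0.00), Dlat (-0.2) and Pdk3 (0.09), and under voom for Eno1 (-0.02) and Dlat (-0.24). With 1 sample left out, the ranges were -0.18 to 0.73 for Slc2a1, -0.38 to 0.26 for Hk3, -0.24 to 0.02 for Pfkl, -0.05 to 0.17 for Aldoa, -0.02 to 0.67 for Aldoc, -0.10 to 0.08 for Tpi1, -0.03 to 0.12 for Gapdh, -0.06 to 0.20 for Eno1, -0.08 to 0.04 for Ldha, -0.34 to 0.02 for Mpc1, -0.14 to 0.04 for Mpc2, -0.06 to 0.30 for Pdha1, -0.52 to 0.03 for Pdhx, -0.26 to 0.27 for Dlat and -0.27 to 0.11 for Pdk3. Of 120 isozyme shares recomputed with another length measure or with pseudogene reads, 20 moved by more than the spread between mice; the Ldha share was 69.7% in WT and 72.7% in Pon2-/- samples with the longest transcript. With 6 mice per genotype, 19 of 35 intervals reached a change of 2-fold, and at this depth a count of 0 allows up to 0.124 to 0.231 CPM.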

Other observations

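Reads were also counted on pseudogene copies of several members. Whether such reads came from the copy or from its parent gene was not tested. Gapdh had 163 such copies with at least 90.02% identity, and they held 5.33% to 10.1% of the reads of the family in a sample. With these reads added, the log2 fold change of Gapdh was 0.01. The Gapdh copy 3000002C10Rik had 1644 counts in all WT and 681 in all Pon2-/- samples, with a log2 fold change of -1.42 (SE 0.99) and an exact permutation p of 0.0563. Of 8 copies that passed the filter, Gm6123 alone was called, and it passed that filter only through the Pon2-/- samples.

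In the further lists, 2 genes picked after their values were seen had an exact permutation p below 0.05 without a small edgeR p. Vhl, whose product marks HIF-1α for degradation, ranged from 0 to 24.3 CPM in WT (median 11.5 CPM) and from 10.6 to 43.3 CPM in Pon2-/- samples (median 41.1 CPM), with a log2 fold change of 1.62 (SE 1.12) and an exact permutation p of 0.0195. H6pd, the glucose-6-phosphate dehydrogenase of the endoplasmic reticulum, ranged from 8.41 to 62.5 CPM in WT (median 36.8 CPM) and from 0.276 to 36.3 CPM in Pon2-/- samples (median 6.61 CPM), with a log2 fold change of -1.51 (SE 0.95) and an exact permutation p of 0.0455. The genotypes overlapped for both, and 5.88% of all genes had such a p.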
